A study of Pseudotsuga menziesii with 83 samples.

Results

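This section describes 100 numbered features of the Douglas-fir needle transcriptome whose mean level was highest on the March sampling date and nearly level over the dates that followed. They were chosen from 90662 features by their own values. The level of a feature was log2(CPM + 1), where CPM is its read count divided by the column total and multiplied by 1000000, averaged by date over 11 trees. Features had to have a mean count of at least 50, to lie outside the 50 largest row sums (16435 features met both), and to have April, May and June means within 0.4 of each other on the log2 scale, which left 5955. The 100 with the largest March excess, the March mean minus the highest of the 3 later means, are the members. Every value of March against the later dates was thus used to choose them and is given as a description, with no test.

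Douglas-fir (Pseudotsuga menziesii) is an evergreen conifer of western North America that keeps its needles for several years. Needles of the previous season stay on the shoot through winter dormancy and remain in place while the buds open and new shoots extend in spring. Seasonal acclimation changes the needle transcriptome over this interval as cold hardiness is lost and photosynthesis recovers. The features of the deposited table carry numbers and no gene names, so the members are described by number and level, and no function, pathway or sequence is attached to any of them.

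The trees grew in 1 common garden in southern Oregon, from seed of 3 sources. They were 4 trees of the Oregon Siskiyou source (44, 46, 89 and 90), 3 of the Washington Cascades source (05, 08 and 39) and 4 of the Washington coast source (10, 12, 68 and 69), of 6 families in all, without any treatment. Needles of the prior year's growth were taken on 10 March, 7 April, 6 May and 17 June, which gave 44 libraries, 1 per tree and date. By the labels all March needles preceded budbreak and all June needles followed it. In April only Oregon trees 44, 46 and 89 were past budbreak, and in May only Coast tree 10 was not. A library is 1 tree, and the trees are the replicates. Libraries were sequenced on 2 flowcells: in March, trees 44, 46, 05, 08, 10 and 12 were on fc1022 and the other 5 on fc1025, in April the assignment was reversed, and all May and June libraries were on fc1025. Each date was run in lanes of its own, so lane and date cannot be told apart.

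The column totals lay between 11293394 and 11302021 reads, so depth did not differ between libraries as deposited. Library identity was checked with 140 to 191 features per library that differed by over 3 log2 units between trees and were steady within trees on the other dates. All 46 libraries with an undisputed date, those of 11 trees plus the April and May libraries of tree 38, were nearest to their own tree, and in 45 of them 0% to 1.37% of these features were off by more than 2 log2 units from the tree's other dates. The March library of tree 44 stood apart, with 13 of 191 features (6.81%) off. Of these, 12 were higher in that library than in the later libraries of tree 44, and in the libraries of tree 38 all 12 were above the level of tree 44 by more than 2 log2 units, against 3 to 9 of the 12 in each of the other trees. Some results that rest on this library are given with and without it, and the other March values include it. Without this library, the same rule chose 93 of the 100 members, and all 100 members stayed above their highest later mean, by a median of 0.64. Without all libraries of tree 44, it chose 81 of the 100, among them 4 of the first 8.

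The March excess ran from 1.47 to 0.51 on the log2 scale, with a median of 0.62. In 8 members it was at least 1, in 56 it was between 0.6 and 1, and in 36 it was under 0.6. The median over all 5955 features with level later means was -0.11, and 1956 of them had an excess above 0. The list stops within a continuous range. The last members inside were gene13054 with 0.52, gene33793 with 0.52 and gene28204 with 0.51, and the first features outside were gene26855, gene8859 and gene10105, each with 0.51. gene8859, outside the list, was the most abundant of these 6, with 1466 ± 284 CPM (SD, n = 11) in March and 963 to 1033 CPM as the means of the later dates. gene10105 changed direction with the choice of libraries, since its value was -0.09 when fc1025 libraries alone were used.

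**Figure D1:**
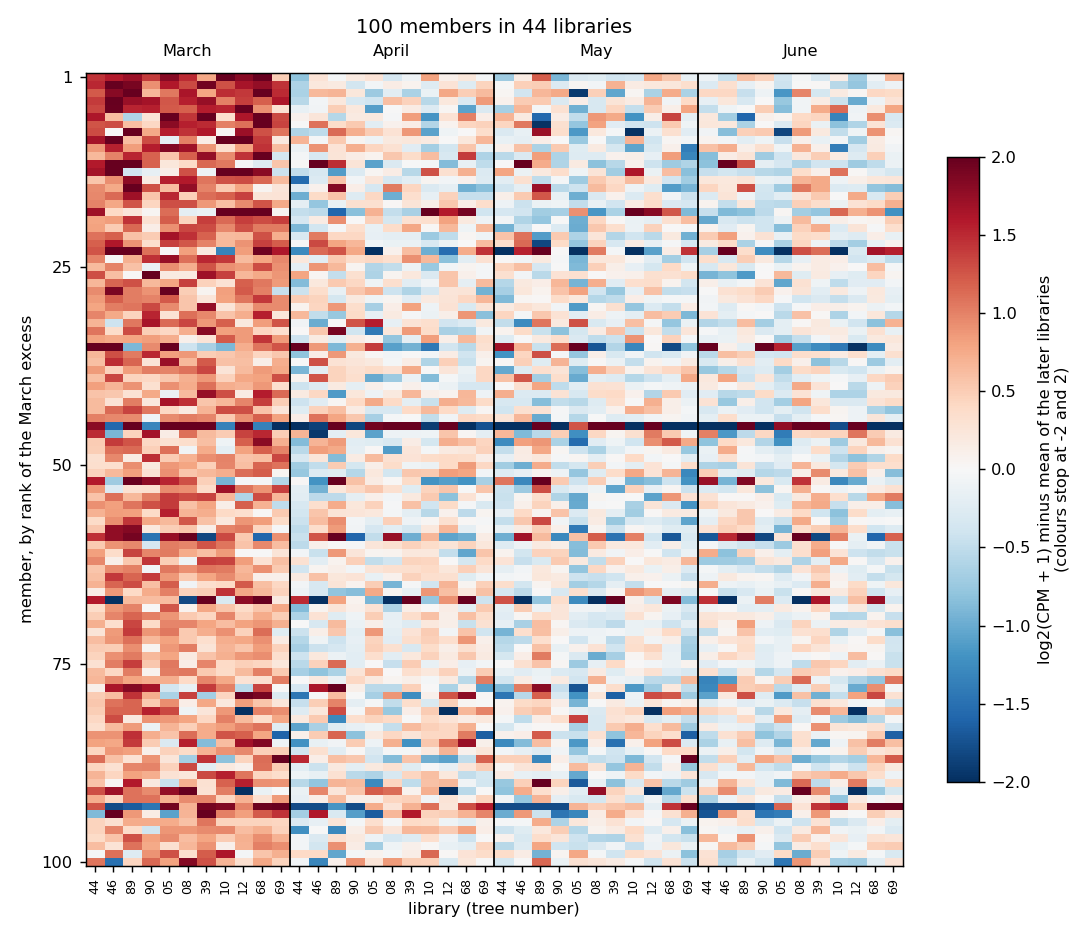
Level of each of the 100 members (rows, by rank of the March excess) in each of the 44 libraries (columns, by date and tree), as log2(CPM + 1) minus that member's mean over the 33 later libraries. March columns are mostly red because the members were chosen for that, with a median excess of 0.62, while a few rows differ between trees on every date.

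The selection label, high only in March, described means over trees better than single libraries. March was the highest of the 4 dates in at least 9 of the 11 trees for 84 members (4.92% of the 5955 features did so) and in all 11 trees for 24 members (0.823% of the 5955). Only 2 members, gene22730 and gene33169, had all 11 March values above all 33 later values (0.0336% of the 5955). For the median member, 4 of the 11 March values exceeded every later value. Since the rule used these values, nothing is read from the counts.

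gene22730, the second of the list, had a lowest, median and highest CPM over the 11 trees of 11.5, 19.2 and 27.7 in March. The same 3 values were 3.36, 6.02 and 8.05 in April, 4.51, 6.73 and 9.83 in May and 2.92, 4.96 and 7.34 in June. The lowest March tree lay above the highest later tree, and the mean level in March was 2.84 times the highest later mean. gene33169 had 8.41, 12.7 and 19.7 CPM in March as the lowest, median and highest tree, against 2.21, 3.54 and 7.52 in April, 2.74, 4.25 and 6.55 in May and 1.33, 3.36 and 4.69 in June. Again no March tree overlapped a later library.

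The other 6 of the first 8 members overlapped the later dates in 1 or more libraries. gene29519 had the largest excess, 1.47, and went from 8.68, 19.7 and 28.8 CPM (lowest, median and highest tree) in March to 2.92, 6.37 and 10.98 in April, 2.65, 4.78 and 14.9 in May and 3.19, 5.57 and 10.0 in June. Its overlap came from low March values in Coast tree 69 (8.68 CPM) and Cascades tree 39 (10.8 CPM) and from a high May value in Oregon tree 89 (14.9 CPM). gene31337 was at 6.02, 11.25 and 21.2 CPM in March, with medians of 4.16, 3.54 and 3.98 CPM in April, May and June. Its lowest library was May tree 05 with 0.177 CPM. gene56802 was at 7.79, 19.3 and 27.2 CPM in March, with later medians of 5.75, 6.73 and 6.02 CPM. In 10 of the 11 trees March was its highest date, the same number as for gene29519 and gene31337.

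gene89871 and gene40110 varied more between trees. gene89871 ranged from 9.65 CPM in Oregon tree 89 to 117.7 CPM in Coast tree 68 in March, with a median of 42.5, and its later medians were 17.3, 16.8 and 15.7 CPM. Its March mean stood 0.70 above the mean of the later dates in the Oregon trees, 1.53 above it in the Cascades trees and 1.57 above it in the Coast trees. gene40110, the most abundant of the first 8, ran from 193 CPM (Oregon tree 90) to 574 CPM (Coast tree 68) in March with a median of 357, and had later medians of 158.5, 134.8 and 130.8 CPM. The corresponding differences were 0.76, 1.64 and 1.48. These differences between sources were not past the threshold in either feature, as tested below for all features. gene4880 was highest in March in all 11 trees although its values overlapped widely, with 5.84, 15.6 and 29.7 CPM in March against 2.21, 7.26 and 13.7 in April, 0.708, 5.22 and 21.3 in May and 0.885, 5.93 and 11.5 in June. Oregon tree 89 was its highest library on each of the first 3 dates.

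**Figure D2:**
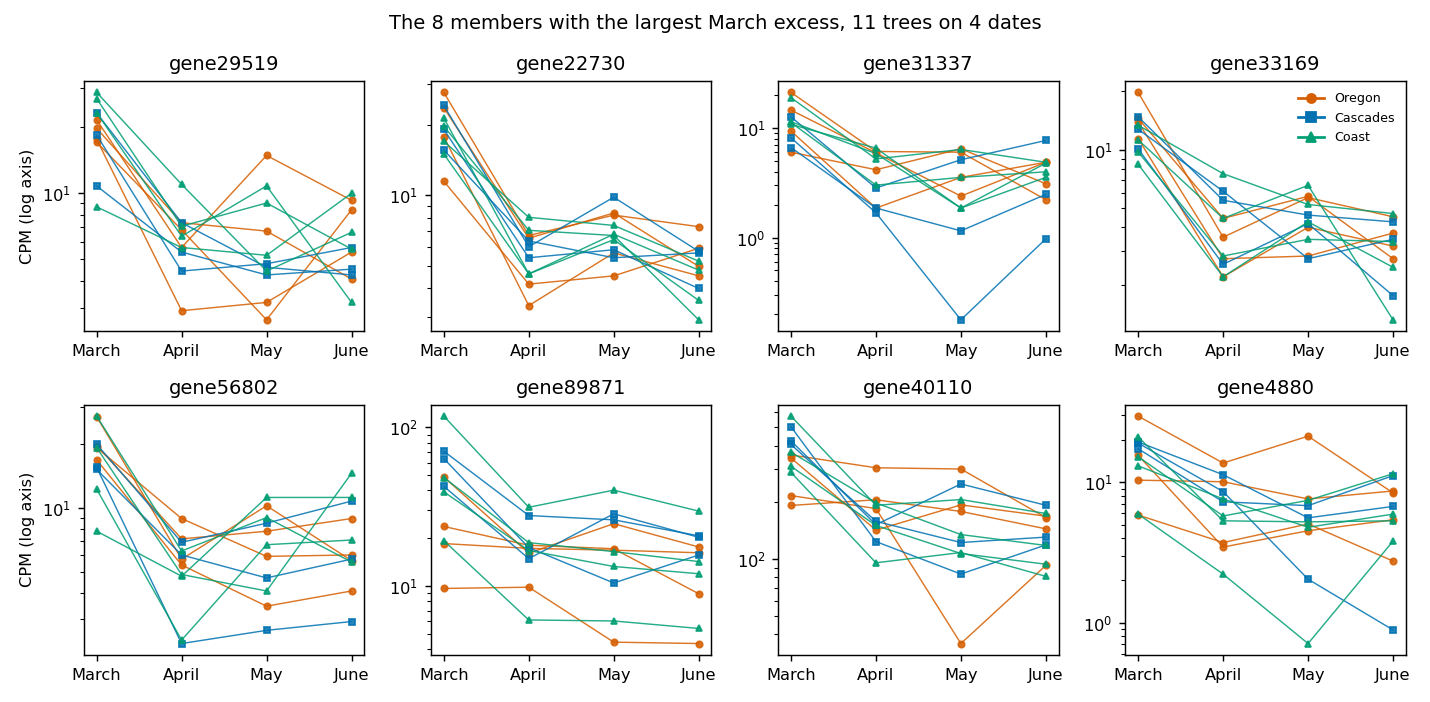
CPM on a logarithmic axis of the 8 members with the largest March excess, for each of 11 trees on the 4 dates, coloured by seed source. All 11 March points of gene22730 and gene33169 lie above all their later points, while the trees of gene89871 span 9.65 to 117.7 CPM in March.

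The members covered a wide range of abundance, and the 4 with the highest March means are named here. The mean March level over all members ran from 6.61 to 899.5 CPM with a median of 17.7, close to the median of 16.4 over the 5955 features, and 22 members were under 10 CPM. gene13994 had 621, 827 and 1258 CPM in March (lowest, median and highest tree) and medians of 561, 611 and 511 CPM later. March was its highest date in all 11 trees, but 9 of its 11 March values lay below its highest later value, 1117 CPM in April in Oregon tree 89. gene8450 had 573, 728 and 1359 CPM in March and later medians of 502, 528 and 483.5 CPM, with the same tree 89 highest in March and April. gene4403 had 410, 806 and 895.5 CPM in March and later medians of 507, 444 and 374 CPM. gene3493 had 329, 410 and 553 CPM in March and later medians of 298, 218 and 256 CPM. The March excess of these 4 was 0.56, 0.57, 0.60 and 0.59, near the median of the list.

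Summed over the 100 members, the March level was 8259 ± 1109 CPM (SD, n = 11 trees), which is 0.826% of the reads. The April, May and June levels were 5138 ± 847, 4632 ± 679 and 4575 ± 656 CPM, or 0.514%, 0.463% and 0.457% of the reads. The lowest March sum was 6759 CPM (Coast tree 69) and the highest later sum 6532 CPM (April, Oregon tree 89), so the sums of March and of the later dates did not overlap. The members were chosen for a high March mean over these trees, so nothing is read from this separation. Within sources the March sums were 8420 ± 1621 CPM in Oregon (n = 4), 8589 ± 859 in the Cascades (n = 3) and 7850 ± 783 at the Coast (n = 4), and they differed by less than their spread. Among the later means, April was the highest for 64 members, June for 27 and May for 9.

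**Figure D3:**
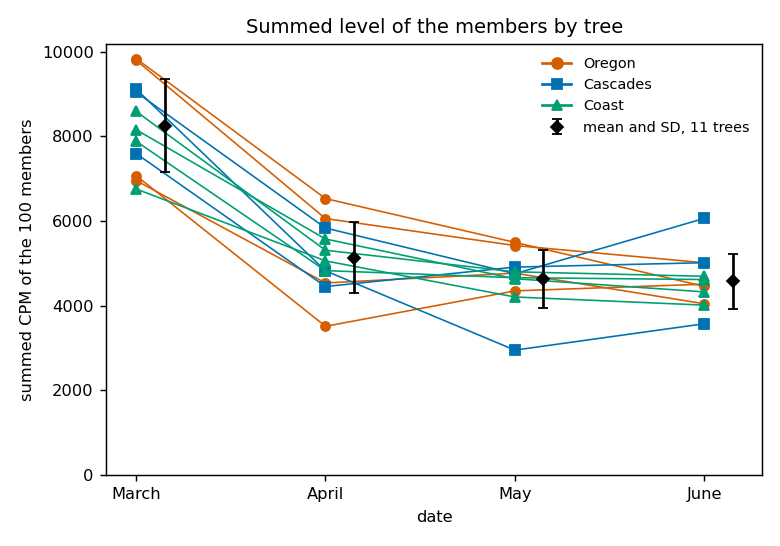
Summed CPM of the 100 members for each tree on the 4 dates, coloured by seed source, with the mean and SD of the 11 trees as black diamonds. March sums run from 6759 to 9843 CPM and later sums from 2948 to 6532 CPM, without overlap, for members chosen by these values.

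Column totals set the scale of these values, and other scaling moved them. Over the 16435 filtered features the median of March minus the later dates was -0.03 for April, 0.16 for May and 0.24 for June with column totals, and 0.00, -0.08 and -0.04 after TMM scaling, a normalization that equalises the bulk of the features between libraries. For the members the medians were 0.68, 0.85 and 0.83 with column totals and 0.70, 0.62 and 0.55 after TMM. All 100 members remained above each later date under both scalings, but the level course after April did not hold in the same way: 77 of the 100 kept later means within 0.4 after TMM, and the same rule on the TMM scale chose 32 of the 100.

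A list chosen on the same trees has to look high in March, so the rule was also run without a tree and its choice was read in that tree. Each of the 11 runs chose 76 to 88 of the 100 members. In the tree left out, the median of March minus the mean of the later dates over the 100 features so chosen ran from 0.49 (Oregon tree 90) to 1.11 (Cascades tree 05), and 81 to 99 of the 100 were above 0. Over all features with level later means in the same runs, the medians were -0.11 to 0.13 and 39.6% to 66.8% were above 0. In each of the 11 trees the chosen features lay above the others. Tree 44, whose March library stood apart, gave 0.76, with 95 of 100 above 0.

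**Figure D4:**
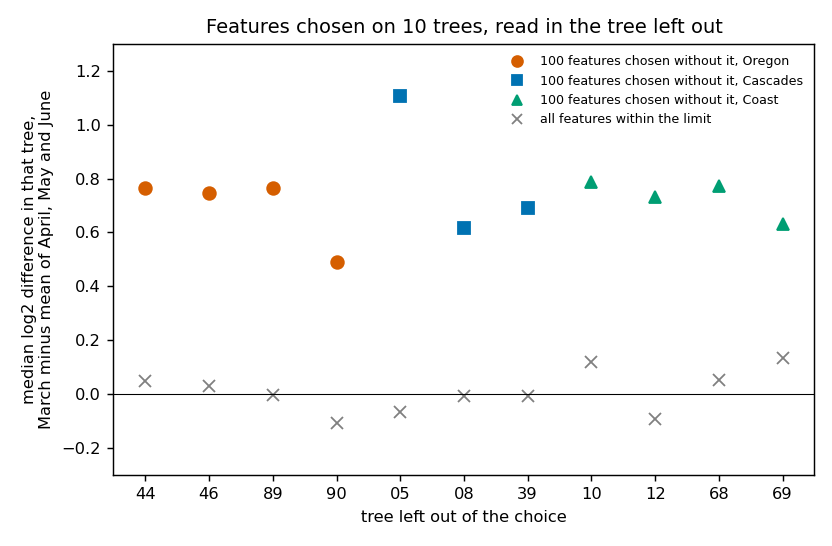
Median log2 difference, March minus the mean of April, May and June, in each tree for 100 features chosen on the other 10 trees (coloured by seed source) and for all features with level later means (grey crosses). The coloured points lie between 0.49 and 1.11 and the crosses between -0.11 and 0.13.

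Leaving out a whole seed source asked the same of trees with another origin. Chosen on the Washington trees alone, 100 features of which 52 were members had a median of 0.67 in the 4 Oregon trees, and all 100 were above 0, against 46.4% of the features with level later means. Chosen without the Cascades trees (62 members), the median in those 3 trees was 0.74 with 100 of 100 above 0 (47.03% of the features with level later means), and chosen without the Coast trees (63 members), it was 0.72 with 98 of 100 above 0 (61.2% of such features). Tested across all features in each left-out source alone by edgeR's quasi-likelihood test, at a Benjamini-Hochberg adjusted p of at most 0.01, 6 of the 100 were called higher in March in Oregon (1.76% of all features tested), 3 in the Cascades (0.874%) and 9 of 99 tested at the Coast (2.88%), and none was called lower. With the tree as a block, since libraries of 1 tree varied together, the counts were 24 (5.05%), 22 (4.77%) and 41 (8.95%). Without tree 44, 1 of the 100 was called in Oregon (0.257%), and 11 with the block (2.2%). In all of these runs the share called exceeded the share over all features. Without tree 44 and without the block, this rested on 1 feature. The shares are uneven: all features tested had a median count over 5, the chosen ones a mean count of at least 50 in the other trees. No share over features of like count was computed.

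For the members as chosen, the same contrast over the 44 libraries was past the threshold in 70 of 100, all higher in March, where 24.8% of the 29189 features tested were called in either direction and 13.3% higher in March. The rule used this contrast, so nothing is read from this count.

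Differences between the seed sources on a single date did not enter the rule. In March no member differed between the 3 sources by edgeR at an adjusted p of at most 0.01, with 4 of 30496 features called (0.0131%). At an unadjusted p under 0.05 there were 11 members and 1842 features (6.04%), and DESeq2 called 1 member and 59 features (0.193%). Oregon against the mean of the Washington sources called no feature by edgeR (14 members and 2529 features, or 8.29%, at an unadjusted p under 0.05), while DESeq2 called 1 member and 43 features (0.141%). The members' median of Oregon minus Washington was 0.16, with 68 above 0, against -0.01 over all features. It was 0.04, with 54 above 0, when column totals replaced TMM, where the median of all features moved to -0.14. Coast against Cascades called no member by either tool, with 4 features (0.0131%) by edgeR and 20 (0.0656%) by DESeq2, and 11 members and 1273 features (4.17%) were at an unadjusted p under 0.05 by edgeR. The members' median of Coast minus Cascades was -0.10, with 44 above 0, against -0.01 over all features.

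The member that DESeq2 called was gene90520, and it is named here after its values were seen. In March it had 10.9, 31.0, 18.6 and 7.97 CPM in Oregon trees 44, 46, 89 and 90, against 3.63, 4.16 and 7.79 CPM in the Cascades trees 05, 08 and 39 and 7.17, 2.83, 2.30 and 4.78 CPM in the Coast trees 10, 12, 68 and 69. The 4 Oregon values were all above the 7 Washington values, the nearest being 7.97 and 7.79 CPM. In April the 4 Oregon values were 3.01, 21.7, 10.0 and 3.72 CPM and the highest Washington value was 2.92. On the other dates the sources overlapped. In May Oregon trees 44 and 90 had 2.92 and 1.59 CPM, below Cascades tree 05 with 3.45, and in June tree 44 had 1.24 CPM, below all 7 Washington trees. Its tree 38 values, 15.3 CPM in April and 14.0 in May, were nevertheless above every Washington value of the 11 trees. The Oregon minus Washington difference in March was 2.01 with DESeq2 (adjusted p = 0.00376) and with edgeR and no count filter (adjusted p = 0.00622).

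In April, May and June no member differed between sources by edgeR at an adjusted p of at most 0.01 (3, 2 and 2 features called, which is 0.00979%, 0.00715% and 0.0071% of those tested), with 20, 12 and 14 members at an unadjusted p under 0.05, where 10.7%, 7.17% and 7.9% of the features were. DESeq2 was not run on these dates. The March excess itself, March minus the mean of the later dates, did not differ past the threshold between sources in any member. Neither edgeR nor DESeq2 called any feature. By edgeR, 3 members and 417 features (1.43%) were at an unadjusted p under 0.05. With the tree as a block edgeR again called none, with 15 members and 1659 features (5.68%) at an unadjusted p under 0.05. The members' median of the Coast minus Cascades difference in the excess was -0.20, with 21 above 0, and without tree 05 it was -0.01, with 48 above 0. Each of the other trees moved the value less when left out. It was -0.10, with 37 above 0, without tree 69, and -0.29, with 15 above 0, without tree 08.

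Some members differed more between trees than between dates. The SD over the 11 March libraries had a median of 0.46 on the log2 scale, against 0.33 over the 5955 features, and exceeded the March excess in 23 members. It was above each of the 3 later SDs in 26 members (17.8% of the 5955 features) and below each of them in 24. For the latter the share over the 5955 features was not computed. Differences between trees carried over between dates. Over the 11 trees, the March level correlated with the mean later level with a median Pearson's r of 0.67 for the members and 0.62 for the 5955 features, 29 members were above 0.8 (21.6% of the 5955 features) and no member was below 0. The points of each r share the tree and are given as a description. In 9 members the later means of the trees spanned more than 3 log2 units (2.67% of the 5955 features).

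gene41928 had the largest spread between trees, with a March SD of 2.38. In March it had 122.6 CPM in Oregon tree 89, 73.3, 154.8 and 160 CPM in the Cascades trees 05, 08 and 39 and 101.9 CPM in Coast tree 12, but 3.72, 4.69, 4.52, 4.52 and 1.95 CPM in trees 46, 90, 10, 68 and 69. The same 5 trees were high and the same 5 low on every later date. In June the high trees had 71.9, 47.02, 117.7, 154 and 70.0 CPM and the low trees 0.973 to 3.10 CPM. Tree 44 alone changed side, with 47.8 CPM in March and 2.48, 1.59 and 2.04 CPM in April, May and June. Both libraries of tree 38 were high, with 68.4 and 64.3 CPM. The March excess of gene41928 was 0.65 with the March library of tree 44, 0.55 without that library and 0.33 without all libraries of the tree.

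gene28933 was low in most Oregon libraries, although no date passed the threshold. In the 7 Washington trees it lay between 4.60 and 15.0 CPM in March and between 2.04 and 15.4 CPM on the later dates. In the Oregon trees 46, 89 and 90 it had 0, 1 and 3 reads in March, and over the 12 later Oregon libraries, tree 44 included, it had 0 to 6 reads, with 0 in 10 of them. The March library of tree 44 was again on the other side, with 82 reads (7.26 CPM), and tree 38 had 12.4 and 11.1 CPM. Oregon minus Washington had an adjusted p of 0.149 in April, 0.146 in May and 0.0105 in June, and of 0.596 in March, where it was 0.0348 without tree 44 (edgeR's quasi-likelihood test). The March excess was 0.52 with the March library of tree 44, 0.47 without that library and 0.27 without all libraries of the tree.

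The other members with the largest March SD were also split by tree. gene76839 was at 0 reads in tree 46 on all 4 dates, and in tree 08 it was at 0.354 CPM in March and at 0 later. It was highest in trees 39 and 68, with 45.6 and 47.4 CPM in March and 13.7 and 14.9 in June. gene17469 ran from 0 CPM in tree 39 to 22.2 CPM in tree 08 in March, with trees 39, 68 and 90 under 1 CPM on every date. Tree 44 had 8.76 CPM of gene17469 in March and 1.59, 0.796 and 0.0885 CPM later. Its excess was 0.61 over all libraries, 0.53 without the March library of tree 44, 0.35 without all libraries of that tree and -0.69 when fc1025 libraries alone were used.

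**Figure D5:**
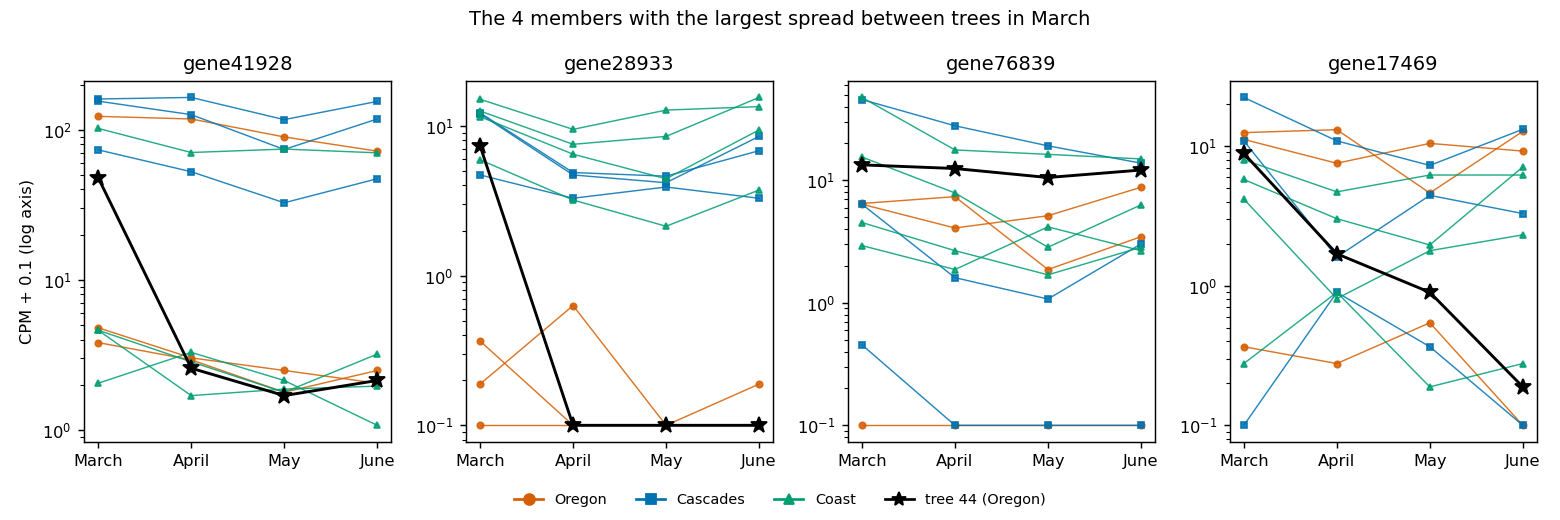
CPM plus 0.1 on a logarithmic axis of the 4 members with the largest SD between trees in March, for each of 11 trees on the 4 dates, coloured by seed source, with tree 44 in black. In gene41928 and gene28933 tree 44 is with the high trees in March (47.8 and 7.26 CPM) and with the low trees afterwards, while the other 10 trees keep their side.

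At the other end were the members with the smallest March SD. Even in the first 4 of these, the highest March tree was 1.74 to 1.99 times the lowest, while the mean level in March was 1.48 to 1.59 times the highest later mean. gene15456 had the smallest March SD, 0.22, with 6.82, 7.61 and 12.2 CPM as the lowest, median and highest tree, and later medians of 5.22, 5.22 and 4.78 CPM. gene2235 was at 32.2, 43.3 and 56.1 CPM in March (SD 0.24) and had later medians of 23.5, 24.7 and 25.8 CPM. Its May value in tree 89, 44.8 CPM, and its June value in tree 08, 43.6 CPM, stood within the March range. gene4033 was at 7.17, 9.29 and 14.3 CPM in March (SD 0.25), with later medians of 4.87, 4.07 and 6.46 CPM. gene40409 was at 8.50, 12.0 and 14.8 CPM in March (SD 0.26), with later medians of 7.44, 6.28 and 6.29 CPM, and its June tree 08 value, 16.1 CPM, exceeded every March value.

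The members did not form 1 block across the trees. Over the 11 March libraries the 4950 pairs of members had a median r of 0.06, with 5% of the pairs below -0.51 and 5% above 0.60, and the first principal component held 20.5% of the variance. In 6 pairs r was above 0.9. The closest were gene884 with gene36113 (0.99 over 11 March libraries, 0.92 over 44), gene7324 with gene4403 (0.98 and 0.99), gene2290 with gene7535 (0.97 and 0.95) and gene4076 with gene56144 (0.94 and 0.93). These pairs were picked as the highest of all pairs, and features that share reads through near-identical sequence were not identified here.

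The flowcell was crossed with date in March and April. Within fc1022 the members' median of March minus April was 0.65 (95 of 100 above 0) and within fc1025 it was 0.83 (97 above 0), against -0.03 over the filtered features on both. The rule used the March and April values of these libraries, so nothing is read from these medians or counts. The test of the flowcell difference called no member and no feature by edgeR at an adjusted p of at most 0.01. At an unadjusted p under 0.05 there were 2 members and 349 features (1.13%). DESeq2 called no member and 1 feature (0.00325%). The members' median difference, fc1022 minus fc1025, was 0.10, with 75 above 0, against 0.00 over all features. Flowcell fc1022 carried 6 March and 5 April libraries but no May or June library. A feature higher on fc1022 was thus favoured by the rule, and nothing is read from this median.

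Tree 38 took no part in the choice and has no March library by its labels. The study, however, lists a March library and no June library for this tree. The unused column, labelled June, may thus hold March needles, which was not tested. In April the values of tree 38 lay within the range of the 11 other trees for 94 members. They lay below the March mean for 90 and below every March value for 49. In May these counts were 86, 92 and 61. Its summed CPM was 4345 in April and 3698 in May, below the lowest March sum of 6759.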

How the data were processed

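Needle RNA of Douglas-fir trees was sequenced by the authors, and the deposited table holds whole-number read counts for 90662 numbered features in 47 columns. CASAVA 1.8 and Bowtie2 appear among the tools of the submitters' processing notes. By the study's methods, reads were aligned with Bowtie2 to a pan-transcriptome assembled from the needles of its trees. Whether the numbered features of this table come from that reference was not established here, and the step that left all column totals nearly equal is not given in the sources used here, so totals do not show the depth sequenced. Columns were matched to trees and dates by the labels. For 1 column of tree 38 the labels name June, while a table of the study lists a March library and no June library. This column was not used, and the other 2 columns of tree 38 are shown beside the 11 trees. Libraries of other dates were not analysed here.

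CPM was computed from column totals. Differences were tested with edgeR 4.0.16 (quasi-likelihood test, TMM, features with a median count over 5, Benjamini-Hochberg adjusted p at most 0.01), and DESeq2 1.42.0 was an alternative (R 4.3.3). The selection rule and the edgeR fits were tried on simulated data, and the DESeq2 fits were not. Trees paired the samples: deviations from the means of source and date correlated in all 66 same-tree pairs (mean r 0.53, lowest 0.21). Where nothing else is said, fits had no tree term. P-values of the source tests on a single date measure the spread between trees. These trees came from 6 families, and each tree but 08 shared its family with another tree of its source. No fit had a term for the family. Fits over several dates without a tree term treat the libraries of 1 tree as independent, so their p-values mix the spread between and within trees. With the tree as a block, p-values measure the spread within trees. The named features are ranks 1 to 8, the 3 features on each side of the end of the list, the 4 members highest in March, the 4 with the largest and the 4 with the smallest March SD, and members called in a test the rule did not use. The members, lists and tests were chosen with earlier results of these data known.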

Additional observations from a re-analysis of the deposited data

Results flagged for a closer look

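In groups of 4 trees, a tree was marked where its gap to the nearest other tree took up more of the group's range than chance usually gives, in 56 groups of values (summed levels, per-tree medians and named members in March, in the Oregon and Coast trees). Chance marks about 1 in 20 such groups, and 5 were marked. gene28933 in March was 7.26 CPM in Oregon tree 44, with the other Oregon trees at 0 to 0.266 CPM. gene41928 in March was 101.9 CPM in Coast tree 12, with the other Coast trees at 1.95 to 4.52 CPM, and tree 12 was at 70.0 to 74.2 CPM on the later dates. gene31337 in March was 18.9 CPM in Coast tree 68, with the other Coast trees at 10.8 to 11.4 CPM. gene15456 in March was 7.44 CPM in Coast tree 69, with the other Coast trees at 7.52 to 7.53 CPM, a difference of little size. The median over the members of March minus the mean of the later dates was 0.57 in Coast tree 69, with the other Coast trees at 0.79 to 0.82.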

How the results depend on the processing

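The membership of the list depended on the settings of the rule. The direction was fixed by the choice on the same libraries, so nothing is read from its holding under other settings. Of the 100 members, the rule chose 58 with a pseudocount of 5, 32 with TMM library sizes, 55 with medians over trees, 44 when a mean count of 200 was required, 52 and 55 with limits of 0.3 and 0.6 on the later means, and 33 on fc1025 libraries alone. Added after seeing the data, the rule without the Oregon, Cascades or Coast trees chose 52, 62 and 63. Leaving out 1 tree gave 76 to 88. The members' median of March minus the mean of the later dates was 0.77, 0.63 with a pseudocount of 5, 0.61 with TMM and 0.74 to 0.79 without 1 tree.

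Members called for March against the later dates numbered 70 (24.8% of all features tested), and 48 with the flowcell as a covariate (18.5%). They were 43 on fc1025 libraries alone (14.6%), 94 with the replicate block of the tree (39%), and 60 to 71 without 1 tree (21.4% to 24%). In the third source, the block raised the calls among features chosen on the others to 24 in Oregon, 22 in the Cascades and 41 at the Coast. The block changed no other call. For the seed sources in March, DESeq2 called 1 member (0.193% of all features tested). For Oregon against Washington, DESeq2 called 1 member (0.141%), and so did the fit without a count filter (61 features, 0.0782%). Leaving out 1 tree gave 0 members. In June 1 member passed once the limit on the adjusted p was raised to 0.05, where 4 features (0.0142%) did. The source differences in the excess and the flowcell gave 0 members under each alternative run. A value of a named feature counted as unmoved if it changed by less than that feature's own March SD over the trees. This limit was wide where trees differed, up to 2.38 for gene41928, so the counts say little about stability. Of 442 values, 436 stayed within this limit, 4 moved beyond it and 2 reversed, on fc1025 libraries alone: gene10105 to -0.093 and gene17469 to -0.69. The cause was not tested.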
